A study of Homo sapiens with 6 samples.

Results

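The genes described here are 43 components of transforming growth factor beta (TGF-beta) and bone morphogenetic protein (BMP) signalling, selected by gene symbol from the 58735 genes of a deposited RNA sequencing table. They comprised ligands, latent binding proteins, receptors, SMAD proteins and regulators of SMAD signalling. By role, 22 were placed in the TGF-beta branch, 15 in the BMP branch and 6 in neither branch or both. The table held 3 shPAK5 libraries, labelled as a PAK5 knockdown, and 3 shNC libraries, labelled WT. All 6 were prepared from total RNA of MB231 breast cancer cells. PAK5 is a protein kinase of the p21-activated family. The labels do not state how many hairpins or clones were used, how long after knockdown the cells were taken, or whether a TGF-beta or BMP ligand was added.

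TGF-beta family ligands bind pairs of type II and type I receptors, both serine/threonine kinases. TGF-beta and activin receptors phosphorylate SMAD2 and SMAD3, BMP receptors phosphorylate SMAD1 and SMAD5, and either set enters the nucleus with SMAD4 to regulate target genes. In breast carcinoma cells, TGF-beta is known for growth restraint in early disease and for invasion and mesenchymal change in advanced disease.

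Between 15085168 and 18146091 reads per library were recovered from the FPKM values (fragments per kilobase of exon, scaled to library size). PAK5 itself had 0 reads in all 6 libraries, which allows up to 0.0121 FPKM in the shPAK5 group and 0.0119 FPKM in the shNC group at a floor of 3 reads per group, so the knockdown could not be checked here. The summed level of 5 epithelial markers (EPCAM, CDH1, KRT8, KRT18 and KRT19) was 3341 to 3394 FPKM in shPAK5 and 3323 to 3484 FPKM in shNC libraries, most of it from the keratins. The sum of 6 genes of a mesenchymal state (VIM, SPARC, FN1, AXL, CD44 and ZEB1) was 247 to 252 FPKM in shPAK5 and 217 to 239.9 FPKM in shNC libraries. The mesenchymal sums, carried mostly by VIM, did not overlap between groups. VIM, AXL and CD44 were above shNC by 0.14, 0.15 and 0.14 (log2), while ZEB1 differed by -0.14, so the list was mixed in direction. None of these 4 passed in limma or limma-voom, although VIM and CD44 passed in limma without the shNC library of replicate 1 (adjusted p = 0.0334 for VIM and 0.0356 for CD44), and their part in the results on the pathway genes was not tested. MDA-MB-231 is known as a mesenchymal breast line, yet SPARC, lower in shPAK5 without overlap, and FN1 were near 0. SPARC averaged 0.0669 ± 0.0318 FPKM in shPAK5 and 0.174 ± 0.0384 FPKM in shNC, and FN1 0.0863 ± 0.0223 FPKM in shPAK5 and 0.0319 ± 0.0201 FPKM in shNC (SD, n = 3 each). EPCAM averaged 128 ± 2.72 FPKM in shPAK5 and 109 ± 7.69 FPKM in shNC libraries, and CDH1 (E-cadherin) 5.84 ± 0.0905 FPKM in shPAK5 and 4.64 ± 0.180 FPKM in shNC libraries (SD, n = 3 each). Neither gene overlapped between groups. In limma-voom the adjusted p was 0.0474 for EPCAM and 0.0377 for CDH1, but in limma it was 0.168 for EPCAM and 0.129 for CDH1, and 0.0325 for each without the shNC library of replicate 1. The keratins were mixed in direction. KRT18 lay lower in shPAK5 without overlap (-0.12, log2; adjusted p = 0.19, limma). KRT19 lay higher without overlap (0.06, log2; adjusted p = 0.433, limma), and KRT8 overlapped between groups (-0.08, log2; adjusted p = 0.318, limma). The part of these markers in the pathway results was not tested either. The cells are therefore called by their label only. Of 6 fibroblast markers, LUM gave nearly the whole sum (114 to 115 FPKM in shPAK5 and 102 to 125 FPKM in shNC libraries) and COL1A2 had no read. The 4 immune markers summed to 0.867 to 1.52 FPKM in shPAK5 and 0.545 to 0.964 FPKM in shNC, with CD3E at 0. The 3 endothelial markers summed to 0.0446 to 0.0931 FPKM in shPAK5 and 0.0692 to 0.0791 FPKM in shNC. The shNC library of replicate 1 stood apart from the other 2. For 7227 of 11237 tested genes (64.3%), it lay outside those 2 on the side of the shPAK5 mean, and this held for 17 of the 31 pathway genes tested. Calls that depend on it are given with and without it. This library was singled out by a measure that uses the shPAK5 mean, so leaving it out tends to widen differences and favours calls. No such share was computed for the other 2 shNC libraries. Fits without this library describe how far results depend on it and are no added evidence for a change.

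The pathway genes differed in level over several orders of magnitude, and their levels in shPAK5 cells were close to those in shNC cells. In shNC libraries, 31 of the 43 averaged more than 1 FPKM and 11 more than 10 FPKM, led by TGFBR2, SMURF1, BMP4, TGFBI and TGFB1. No member passed the test of a change: 0 of 31 tested members had an adjusted p under 0.05 with limma (Benjamini-Hochberg over 11237 genes), where 13 genes, 0.116% of those tested, did. At an unadjusted p under 0.05, 5 members were higher in shPAK5 and none lower, against 17% of all tested genes in either direction, 9.52% higher and 7.46% lower. The 5 were SCX, TGFBR2, TGFBI, TGFBR1 and SMAD5. With limma-voom on the recovered reads, 0 of 31 members again passed, where 1.04% of genes did, and 9 had an unadjusted p under 0.05 where 19.1% of genes had. Of these, 8 were higher, as were 11.9% of genes, and 1 was lower, as were 7.23%.

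**Figure D1:**
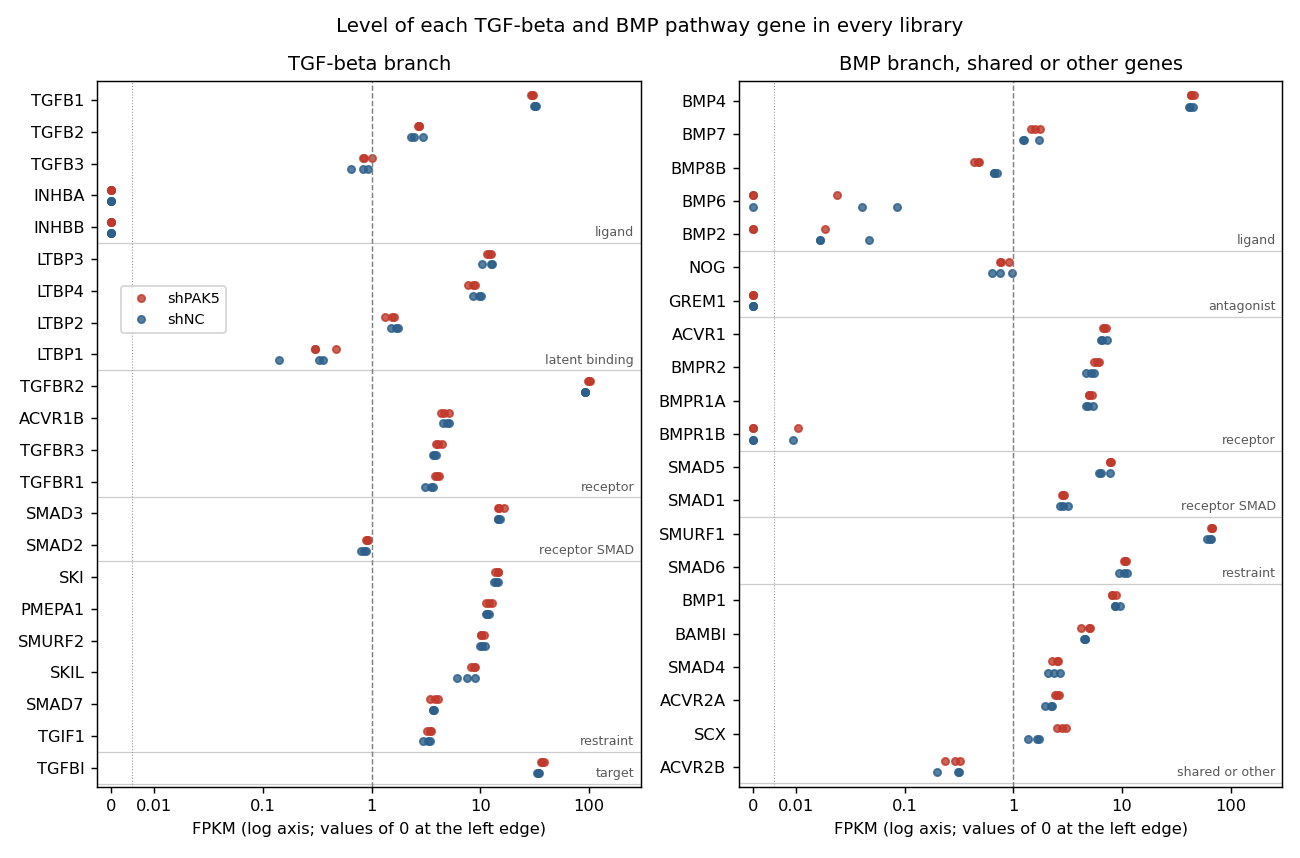
FPKM of each of the 43 pathway genes in every library, on a log axis with values of 0 at the left edge. Red points are the 3 shPAK5 libraries and blue points the 3 shNC libraries, genes are grouped by role, and the dashed line marks 1 FPKM. The red and blue points of most genes lie close together, while the genes range from 0 to about 101 FPKM for TGFBR2.

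The promoters of the pathway genes were searched for short elements known to be bound by SMAD proteins, on both strands, in RefSeq windows of GRCh38.p14 running from 250 bases before a transcription start to that start. Windows were found for 37 of the 43 members, 78 windows in all, and several windows of 1 gene can share bases. The palindromic SMAD element GTCTAGAC was present in 1 of the 78 member windows, that of SMAD6, and in 0.182% of all 35116 windows. The shorter element within it, GTCT, was present in 78.2% of member windows and in 77.5% of all windows. The CAGA box CAGACA, which contains that element on its other strand, was present in 21.8% of member windows and in 13.6% of all, and the GC-rich element GGCGCC in 24.4% of member windows and in 16.4% of all. A match is a description of the sequence and does not show that a SMAD binds there. The SMAD6 stretch is shown because it holds the rare palindrome, and the TGFBR2 stretch because TGFBR2 was the most abundant member. In the annotation that matched the deposited genes, SMAD6 begins at base 66702228, inside the palindrome. Each is part of a searched window and reads 5′ to 3′ on the strand of the gene, with GTCT or its complement AGAC in capitals.

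SMAD6 (chr15:66702206-66702235, plus strand): ccgcggagccgccaaagtGTCTAGACtggc
TGFBR2 (chr3:30606351-30606501, plus strand): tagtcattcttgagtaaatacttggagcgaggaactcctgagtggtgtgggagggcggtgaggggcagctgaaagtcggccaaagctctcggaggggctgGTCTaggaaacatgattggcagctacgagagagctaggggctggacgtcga

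In the TGF-beta branch, ligand expression was carried mainly by TGFB1, and none of the ligands passed the test. TGFB1 had 30.1, 30.3 and 29.0 FPKM in shPAK5 libraries, against 31.1, 32.4 and 31.6 FPKM in shNC libraries. All 3 shPAK5 values lay below all 3 shNC values, and TGFB1 was the only tested member with groups that separated in this direction (10.5% of all tested genes did so). The difference was -0.09 ± 0.04 (log2, SE), with an adjusted p of 0.331 in limma. TGFB2 had 2.72, 2.67 and 2.75 FPKM in shPAK5 libraries and 2.97, 2.46 and 2.32 FPKM in shNC libraries, so the groups overlapped. Of its exonic bases, 26.6% are shared with the transcript TGFB2-OT1 on the same strand, so reads of the pair may have been split by the counting. TGFB3 was lower in abundance at 0.896 ± 0.0984 FPKM in shPAK5 and 0.802 ± 0.144 FPKM in shNC cells (SD, n = 3 each). INHBA and INHBB, which encode the beta subunits of activins and inhibins, had 0 reads in every library. A floor of 3 reads per group allows up to 0.0072 FPKM of INHBA in shPAK5 and 0.00709 FPKM in shNC, and up to 0.0187 FPKM of INHBB in shPAK5 and 0.0184 FPKM in shNC. Transcripts of the activin A and activin B ligands were thus below detection, while a type I receptor for them, ACVR1B, was present.

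Some latent TGF-beta binding proteins hold the secreted ligand in the extracellular matrix. LTBP3 had 12.6, 11.9 and 11.5 FPKM in shPAK5 libraries and 10.3, 12.9 and 12.6 FPKM in shNC libraries. LTBP4 had 8.91, 7.78 and 8.57 FPKM in shPAK5 libraries and 8.53, 9.66 and 10.2 FPKM in shNC libraries. Both overlapped between groups. LTBP4 had the most negative difference of any tested member, at -0.15 ± 0.08 (log2, SE; adjusted p = 0.353, limma). LTBP2 averaged 1.49 ± 0.143 FPKM in shPAK5 and 1.65 ± 0.124 FPKM in shNC cells (SD, n = 3 each). LTBP1 was lowest of the 4, at 0.354 ± 0.0969 FPKM in shPAK5 and 0.275 ± 0.118 FPKM in shNC cells.

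Among receptors, TGFBR2, the type II receptor that binds TGF-beta, was the most abundant member of the whole set. It had 103, 101 and 98.8 FPKM in shPAK5 libraries, against 91.9, 91.5 and 91.3 FPKM in shNC libraries. The groups did not overlap, and the spread within each was small beside the gap between them. The ratio of means was 1.10 and the difference 0.14 ± 0.03 (log2, SE). In limma its p was 0.00423 unadjusted and 0.178 adjusted. The adjusted p was 0.0979 in limma-voom and 0.0455 without the shNC library of replicate 1, with a range of 0.0455 to 0.458 over the alternatives tried. TGFBR1, the type I kinase that TGFBR2 activates, had 4.14, 3.82 and 3.99 FPKM in shPAK5 libraries, against 3.67, 3.09 and 3.51 FPKM in shNC libraries. Its groups did not overlap either, and its difference of 0.17 ± 0.07 (log2, SE) had an adjusted p of 0.269 in limma. TGFBR3, the betaglycan co-receptor, averaged 4.12 ± 0.282 FPKM in shPAK5 and 3.79 ± 0.135 FPKM in shNC cells (SD, n = 3 each; adjusted p = 0.463, limma). ACVR1B had 5.09, 4.64 and 4.34 FPKM in shPAK5 libraries and 4.52, 4.92 and 5.16 FPKM in shNC libraries, which overlapped. In shNC cells, TGFBR2 stood far above ACVR1B, TGFBR3 and TGFBR1 in FPKM, whereas TGFBR3 and TGFBR1 were separated by less than the sum of their SDs.

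SMAD3, a receptor-regulated SMAD of the TGF-beta branch, had 15.0, 14.6 and 16.7 FPKM in shPAK5 libraries and 14.4, 15.3 and 14.4 FPKM in shNC libraries. SMAD2, its partner, had 0.912, 0.920 and 0.882 FPKM in shPAK5 libraries and 0.879, 0.804 and 0.858 FPKM in shNC libraries. The SMAD2 groups did not overlap, but the lowest shPAK5 value, 0.882 FPKM, lay only just above the highest shNC value, 0.879 FPKM. SMAD2 did not reach the mean of 1 FPKM needed for the test, although it had 484 to 602 reads per library. The annotation gives it 36366 exonic bases, over which its reads are divided in FPKM, against 9113 for SMAD3. SMAD3 had 2190 to 2481 reads per library, so SMAD2 was lower in reads as well as in FPKM. In an added limma-voom fit over 13710 genes with a mean of at least 10 reads, chosen after seeing the data, SMAD2 differed by 0.10 ± 0.07 (log2, SE; adjusted p = 0.536), and in limma with no filter its adjusted p was 0.816. The added limma-voom fit tested 37 members and called 0 at an adjusted p under 0.05, where 0.948% of genes were called. At an unadjusted p under 0.05 it counted 10 members, where 17.7% of genes passed.

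The 6 genes that restrain TGF-beta signalling were all measured above 1 FPKM. SKI, a nuclear co-repressor of SMADs, had 14.4, 14.5 and 13.6 FPKM in shPAK5 libraries and 14.0, 14.4 and 13.5 FPKM in shNC libraries. PMEPA1, a membrane protein that sequesters receptor SMADs, had 11.2, 12.7 and 11.9 FPKM in shPAK5 libraries and 12.0, 11.4 and 11.2 FPKM in shNC libraries. Both overlapped between groups. SKIL, a co-repressor related to SKI, averaged 8.66 ± 0.369 FPKM in shPAK5 and 7.50 ± 1.46 FPKM in shNC cells (SD, n = 3 each). Its shNC library of replicate 1 had 8.98 FPKM, within the range of shPAK5, while the other 2 had 6.07 and 7.46 FPKM. The difference was 0.20 ± 0.11 (log2, SE; adjusted p = 0.409, limma), and 0.32 without that library (adjusted p = 0.0616). SMURF2, a ubiquitin ligase, averaged 10.4 ± 0.320 FPKM in shPAK5 and 10.5 ± 0.559 FPKM in shNC cells. SMAD7, the inhibitory SMAD that TGF-beta itself induces, averaged 3.79 ± 0.339 FPKM in shPAK5 and 3.67 ± 0.0440 FPKM in shNC cells (adjusted p = 0.83, limma). TGIF1, a homeobox co-repressor, averaged 3.40 ± 0.134 FPKM in shPAK5 and 3.24 ± 0.255 FPKM in shNC cells.

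TGFBI, an extracellular matrix protein induced by TGF-beta, had 37.1, 36.3 and 38.3 FPKM in shPAK5 libraries, against 33.3, 34.6 and 34.2 FPKM in shNC libraries. The groups did not overlap and the ratio of means was 1.09. The difference was 0.13 ± 0.04 (log2, SE), with an adjusted p of 0.221 in limma. It was grouped with the TGF-beta branch as its 1 target gene.

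In the BMP branch, BMP4 was the main ligand, and its groups overlapped at 43.6, 43.6 and 46.2 FPKM in shPAK5 libraries and 41.6, 45.5 and 42.2 FPKM in shNC libraries. BMP7 had 1.77, 1.60 and 1.44 FPKM in shPAK5 libraries and 1.26, 1.73 and 1.23 FPKM in shNC libraries. BMP8B had 0.434, 0.478 and 0.481 FPKM in shPAK5 libraries, against 0.662, 0.717 and 0.672 FPKM in shNC libraries. Its groups did not overlap, but it had only 35 to 58 reads per library and was below the level needed for the test. In the fit over genes with at least 10 reads, BMP8B differed by -0.56 ± 0.21 (log2, SE; adjusted p = 0.174, limma-voom). In limma with no filter on low values its adjusted p was 0.417. BMP8B has a near-identical neighbour, BMP8A, with 0 to 4 reads per library, and reads of the pair cannot be assigned with certainty. BMP2 and BMP6 had at most 3 and 4 reads in any library.

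The extracellular BMP antagonists among the members, NOG and GREM1, were scarce. NBL1, a BMP antagonist that is not a member, was abundant, at 80.9 ± 3.14 FPKM in shNC cells (SD, n = 3). NOG (noggin) had 0.757, 0.906 and 0.770 FPKM in shPAK5 libraries and 0.633, 0.756 and 0.983 FPKM in shNC libraries, from 21 to 31 reads per library. GREM1 (gremlin 1) had 0 reads in all 6 libraries, which allows up to 0.00409 FPKM in the shPAK5 group and 0.00403 FPKM in the shNC group.

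BMP receptors were present at levels close to each other, with the exception of BMPR1B. ACVR1, a type I receptor, had 6.70, 7.14 and 6.83 FPKM in shPAK5 libraries and 6.62, 7.32 and 6.45 FPKM in shNC libraries. BMPR2, the type II receptor, had 6.15, 5.88 and 5.50 FPKM in shPAK5 libraries and 5.25, 4.66 and 5.53 FPKM in shNC libraries (adjusted p = 0.311, limma). In shPAK5, 2 of the 3 BMPR2 values lay above every shNC value and the third lay just inside the shNC range. BMPR1A, a type I receptor, averaged 5.10 ± 0.166 FPKM in shPAK5 and 4.99 ± 0.374 FPKM in shNC cells (SD, n = 3 each). BMPR1A and BMPR2 differed in shNC cells by less than their SDs. BMPR1B had at most 1 read in any library.

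SMAD5, a receptor-regulated SMAD of the BMP branch, had 7.99, 7.77 and 7.81 FPKM in shPAK5 libraries, against 7.74, 6.10 and 6.48 FPKM in shNC libraries. The groups did not overlap, but the shNC library of replicate 1 lay just under the shPAK5 values and apart from the other 2. The difference was 0.19 ± 0.08 (log2, SE; adjusted p = 0.274, limma), and without that library it was 0.28 with an adjusted p of 0.0336. Over the alternatives the adjusted p ranged between 0.0336 and 0.539. SMAD1, its partner, had 2.87, 2.93 and 2.79 FPKM in shPAK5 libraries and 2.86, 2.69 and 3.17 FPKM in shNC libraries, which overlapped. Of the intracellular inhibitors, SMURF1, a ubiquitin ligase for BMP SMADs, had 65.9, 67.5 and 67.3 FPKM in shPAK5 libraries and 60.9, 66.2 and 64.1 FPKM in shNC libraries. The difference was 0.07 ± 0.04 (log2, SE; adjusted p = 0.435, limma), or 0.04 without the shNC library of replicate 1, and 11.7% of its exonic bases overlap TRRAP on the other strand. SMAD6 is the inhibitory SMAD of the BMP branch, and its searched window holds the palindrome shown above. It had 10.7, 10.4 and 10.9 FPKM in shPAK5 libraries and 9.41, 11.2 and 10.5 FPKM in shNC libraries. Its groups overlapped (adjusted p = 0.755, limma).

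Of the genes outside either branch, SMAD4, the common partner of the receptor SMADs, averaged 2.46 ± 0.169 FPKM in shPAK5 and 2.40 ± 0.320 FPKM in shNC cells (SD, n = 3 each). ACVR2A, a type II receptor for activins and some BMPs, had 2.64, 2.40 and 2.51 FPKM in shPAK5 libraries and 2.28, 2.21 and 1.96 FPKM in shNC libraries. These groups did not overlap (adjusted p = 0.311, limma). ACVR2B, a related receptor, averaged 0.285 ± 0.0454 FPKM in shPAK5 and 0.277 ± 0.0671 FPKM in shNC cells. BAMBI, a receptor-like protein without a kinase domain that blocks signalling, had 4.24, 4.95 and 5.04 FPKM in shPAK5 libraries and 4.61, 4.53 and 4.46 FPKM in shNC libraries. BMP1, which despite its name is a protease that processes procollagen, had 8.09, 8.76 and 8.16 FPKM in shPAK5 libraries and 8.58, 9.57 and 8.65 FPKM in shNC libraries. Both overlapped between groups.

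SCX, which encodes the tendon transcription factor scleraxis, had the widest difference of any member. It had 2.81, 2.54 and 3.05 FPKM in shPAK5 libraries, against 1.37, 1.67 and 1.74 FPKM in shNC libraries. The groups did not overlap, but the values rest on 24 to 51 reads per library. The ratio of means was 1.76 and the difference 0.55 ± 0.09 (log2(FPKM + 1), SE; 95% interval 0.35 to 0.75). In limma its p was 0.000231 unadjusted and 0.0813 adjusted. The adjusted p was 0.0979 in limma-voom and 0.0336 without the shNC library of replicate 1, with a range of 0.0336 to 0.301 over the alternatives tried. SCX (chromosome 8, 144266560 to 144268481 in GRCh38, plus strand) lies within the span of BOP1, a ribosome biogenesis gene on the other strand, without overlapping its annotated exons. BOP1 averaged 66.5 ± 0.896 FPKM in shPAK5 and 70.9 ± 7.57 FPKM in shNC cells (SD, n = 3 each), a difference of -0.09 ± 0.07 (log2, SE; adjusted p = 0.57, limma). Whether the counting used strand is not given in the sources used here.

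**Figure D2:**
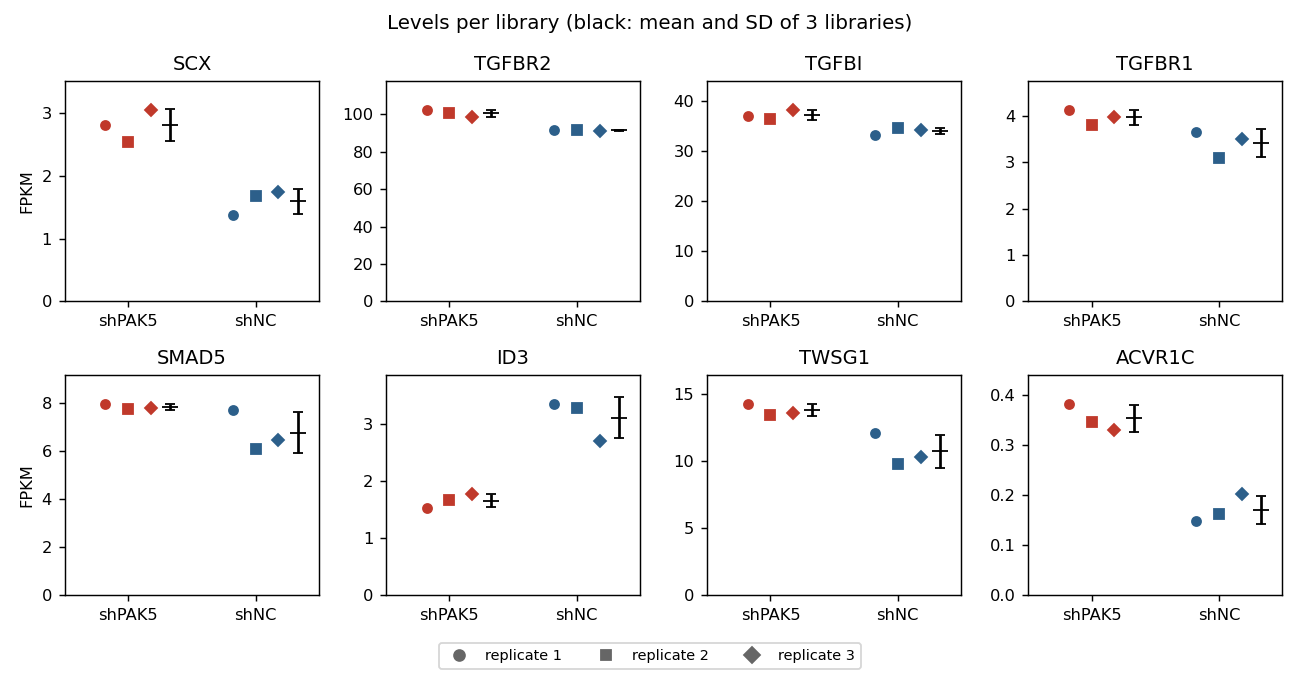
FPKM per library (linear axes from 0) of the 5 members with an unadjusted p under 0.05 and of ID3, TWSG1 and ACVR1C, with shPAK5 in red to the left of shNC in blue. Marker shapes give the replicate number and black bars the mean and SD of 3 libraries. The shPAK5 and shNC points separate in each panel, and in SMAD5 the shNC library of replicate 1, at 7.74 FPKM, lies just below the shPAK5 points.

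The TGF-beta branch was set against the BMP branch in level and in change. In shNC cells the median over the 17 tested genes of the TGF-beta branch was 9.46 FPKM and over the 9 tested genes of the BMP branch 6.77 FPKM, beside 6.48 FPKM over all tested genes. Over all members, untested ones included, the medians were 4.33 FPKM for the 22 TGF-beta genes and 2.91 FPKM for the 15 BMP genes. The median difference between shPAK5 and shNC was 0.04 (log2) in each branch, beside 0.00 over all tested genes. In the TGF-beta branch, 12 of 17 differences were above 0 and they ranged between -0.15 and 0.20. In the BMP branch, 8 of 9 were above 0 and they ranged between -0.02 and 0.19. Over the whole set, 24 of 31 differences were above 0, where 51.3% of all tested genes were. Groups did not overlap for 7 of 31 tested members, 6 higher in shPAK5 and 1 lower, beside 23.1% of all tested genes (12.6% higher and 10.5% lower). The 6 higher ones were SCX, TGFBR2, TGFBI, TGFBR1, SMAD5 and ACVR2A. SMAD2 (higher) and BMP8B (lower) did not overlap either, but were not tested and are not in these counts. A 95% interval lying within a 1.5-fold change in either direction was found for 30 of 31 members, SCX being the exception, and for 95.2% of all tested genes. The difference between the branches was not tested, since their genes are not replicates of a condition.

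**Figure D3:**
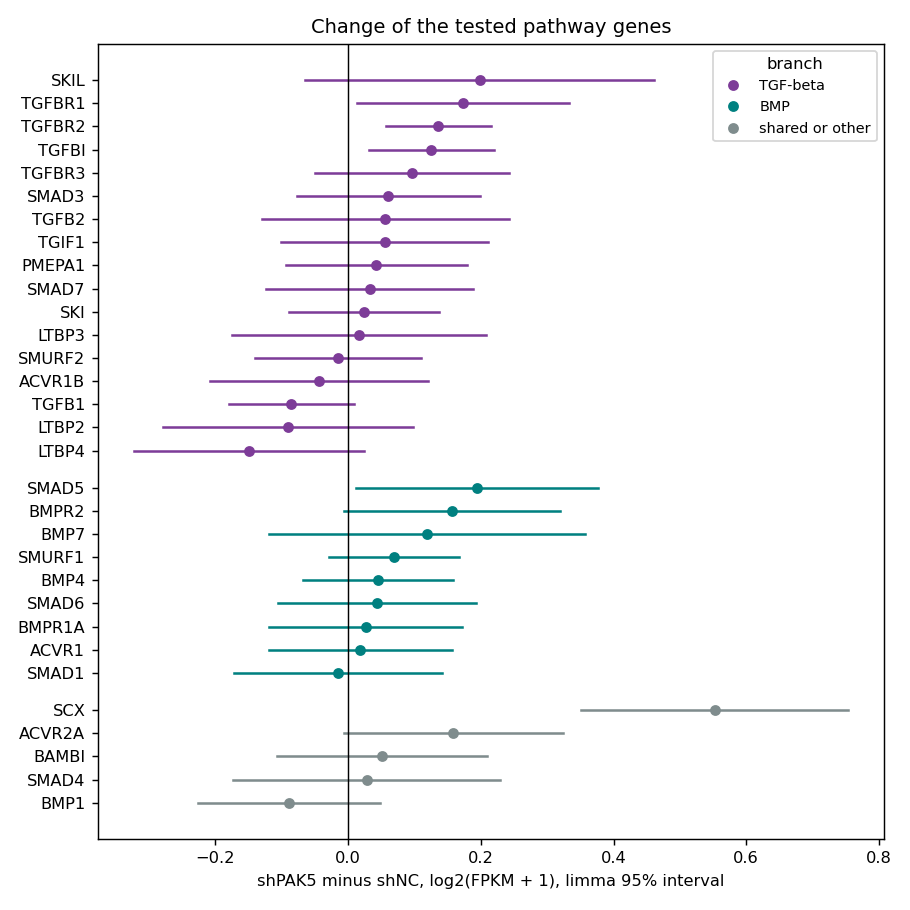
Difference between shPAK5 and shNC on the log2(FPKM + 1) scale for each of the 31 tested genes, as points with limma's unadjusted 95% intervals, coloured by branch. Points right of 0 are higher in shPAK5. Most intervals cross 0, and SCX, at 0.55, stands apart on the right.

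**Figure D4:**
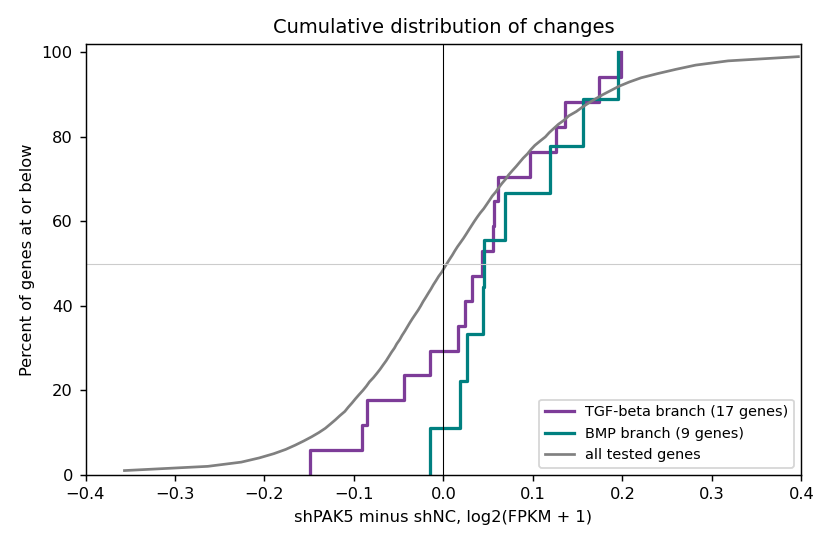
Cumulative percent of genes (vertical axis) at or below a given difference between shPAK5 and shNC (horizontal axis, log2(FPKM + 1)), for the TGF-beta branch in purple, the BMP branch in green and all tested genes in grey. The horizontal line marks 50%. The curves of the branches cross it at 0.04 and that of all tested genes at 0.00.

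Without the shNC library of replicate 1, 3 of 31 members had an adjusted p under 0.05 in limma, where 915 of 11247 genes, 8.14%, did. These were TGFBR2, SMAD5 and SCX, all higher in shPAK5, a direction in which 5.39% of genes were called. At an unadjusted p under 0.05 the fit without that library counted 9 members, where 30.7% of genes passed. Differences of 3 members took the other sign without it, LTBP3 (-0.08, log2), SMURF2 (0.02) and SMAD6 (-0.02), none of them past the threshold in either fit. In bulk RNA, a change in the share of cells that express a gene and a change in RNA per cell cannot be told apart.

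The readout of the pathway was examined in lists of target genes that are not members. Of 16 TGF-beta targets, 9 were tested and 0 passed in limma or in limma-voom. Differences were above 0 for 5 and below 0 for 4. Groups did not overlap for 1 target that was higher and 1 that was lower, beside 12.6% and 10.5% of all tested genes. In limma, 1 target had an unadjusted p under 0.05. That gene was ITGB6, an integrin subunit that takes part in releasing latent TGF-beta. It had 7.11, 6.44 and 6.21 FPKM in shPAK5 libraries, against 5.92, 4.98 and 5.15 FPKM in shNC libraries, with no overlap. The difference was 0.26 ± 0.08 (log2, SE; adjusted p = 0.214, and 0.0407 without the shNC library of replicate 1, both limma; 0.0407 to 0.474 over the alternatives). Of the exonic bases of ITGB6, 20.6% are shared with AC092153.1 on the same strand, so reads of the pair may have been split by the counting. JUNB, the most abundant target, averaged 72.6 ± 3.72 FPKM in shPAK5 and 71.6 ± 2.34 FPKM in shNC cells (SD, n = 3 each). CCN2, a matricellular protein, averaged 5.75 ± 0.336 FPKM in shPAK5 and 6.49 ± 0.466 FPKM in shNC cells (adjusted p = 0.304, limma).

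Of 11 BMP targets, 5 were tested and 0 passed in limma, with 2 differences above 0 and 3 below. At an unadjusted p under 0.05, 1 was higher and 2 were lower, where 9.52% of all tested genes were higher and 7.46% lower. In limma-voom 1 passed, where 1.04% of genes did. The ID genes, which encode inhibitors of basic helix-loop-helix transcription factors and are classical direct targets of BMP SMADs, did not share a direction. ID3 had 1.53, 1.68 and 1.77 FPKM in shPAK5 libraries, against 3.36, 3.28 and 2.71 FPKM in shNC libraries. All shPAK5 values lay well below all shNC values, and the ratio of means was 0.533. The difference was -0.63 ± 0.08 (log2(FPKM + 1), SE). In limma its p was 8.16e-05 unadjusted and 0.0545 adjusted, just short of the threshold. In limma-voom on the reads the adjusted p was 0.0279, past the threshold, and it was 0.0325 in limma without the shNC library of replicate 1. It passed in 4 of 13 alternatives, with adjusted p between 0.0266 and 0.254. ID3 had 48 to 106 reads per library. ID1 had 122, 117 and 121 FPKM in shPAK5 libraries, against 130.2, 139.8 and 131 FPKM in shNC libraries, again with no overlap (-0.15 ± 0.04, log2, SE; adjusted p = 0.191, limma). ID2 had 9.10, 7.64 and 9.35 FPKM in shPAK5 libraries, against 7.11, 6.76 and 7.59 FPKM in shNC libraries. Its groups separated in the other direction (0.25 ± 0.08, log2, SE; adjusted p = 0.22, limma). ID4 and DLX5 had no read. The upstream sequence of ID1 and a stretch upstream of the RefSeq start of ID3 are shown, with GTCT or AGAC in capitals. They were chosen because both genes had an unadjusted p under 0.05 and lay lower in shPAK5. In the annotation that matched the deposited genes, ID3 begins at base 23559794 on the minus strand. Its stretch therefore lies within the annotated gene. The remaining target below 0, MSX1, a homeobox gene, differed by -0.15 (log2; adjusted p = 0.431, limma).

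ID1 (chr20:31605039-31605282, plus strand): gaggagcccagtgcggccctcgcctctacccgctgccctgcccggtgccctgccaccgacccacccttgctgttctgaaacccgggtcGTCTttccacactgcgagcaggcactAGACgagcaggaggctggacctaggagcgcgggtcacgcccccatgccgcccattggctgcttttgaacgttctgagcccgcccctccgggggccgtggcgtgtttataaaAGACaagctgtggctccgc
ID3 (chr1:23559637-23559666, minus strand): ctccgcgGTCTtcggcgtcAGACcagccgg

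A further 61 components of the family that are not members were examined, of which 23 were tested and 0 passed in limma, with 17 differences above 0 and 6 below, where 51.3% of all tested genes were above 0. At an unadjusted p under 0.05, 3 were higher and 1 was lower, where 9.52% of genes were higher and 7.46% lower. In limma-voom 1 passed, where 1.04% of genes did. TWSG1 (twisted gastrulation), a secreted modulator of BMP and chordin, had 14.3, 13.5 and 13.6 FPKM in shPAK5 libraries, against 12.1, 9.77 and 10.3 FPKM in shNC libraries. The groups did not overlap, and the difference was 0.34 ± 0.08 (log2, SE; adjusted p = 0.159, limma). The adjusted p of TWSG1 was 0.0351 in limma-voom and 0.0292 in limma without the shNC library of replicate 1. It passed in 3 of 14 alternatives, with adjusted p between 0.0292 and 0.454. FSTL3, a secreted protein that binds activins, had 24.4, 23.1 and 25.8 FPKM in shPAK5 libraries, against 26.8, 29.7 and 28.2 FPKM in shNC libraries. Its groups did not overlap (-0.20 ± 0.06, log2, SE; adjusted p = 0.207, and 0.0488 without that library, both limma; 0.0488 to 0.458 over the alternatives). PPM1A, a phosphatase for receptor SMADs, had 5.47, 5.26 and 5.76 FPKM in shPAK5 libraries, against 4.92, 4.70 and 4.82 FPKM in shNC libraries (adjusted p = 0.229, limma). ITGB8, an integrin subunit that takes part in activating latent TGF-beta, had 3.36, 3.07 and 2.92 FPKM in shPAK5 libraries, against 2.83, 2.24 and 2.59 FPKM in shNC libraries (adjusted p = 0.261, limma). The groups of PPM1A and of ITGB8 did not overlap. The most abundant of these components were FKBP1A, which binds type I receptors, and NBL1, a BMP antagonist. FKBP1A averaged 136 ± 1.99 FPKM in shPAK5 and 132 ± 11.1 FPKM in shNC cells (SD, n = 3 each). NBL1 averaged 82.9 ± 1.51 FPKM in shPAK5 and 80.9 ± 3.14 FPKM in shNC cells. Other genes overlap 16.8% of the exonic bases of FKBP1A and 17.8% of those of NBL1, in NBL1 on the same strand.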

How the data were processed

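The authors deposited 1 table of FPKM per gene for the 6 libraries, per the file headers, and libraries were grouped and numbered by their titles. No source used here names the aligner, the counting tool or the use of strand. The submitters' processing notes name the build mm10, but all 58735 gene IDs and coordinates matched human GENCODE 29 (GRCh38). FPKM times gene length was a whole number of equal steps in each library (100% of values, within 0.01), so the reads behind the values could be recovered.

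Changes were tested with limma 3.58.1 in R 4.3.3 (eBayes with trend, group as the only term) on log2(FPKM + 1). The test covered the 11237 genes averaging 1 FPKM or more, with Benjamini-Hochberg adjustment at 0.05, and was tested on simulated data. The simulation gave all genes the same spread beyond counting error and held no outlying library. It therefore does not cover the behaviour of the shNC library of replicate 1. Differences are shPAK5 minus shNC and understate the change of low genes. The labels do not say that replicates were separate cultures, so p-values measure the spread between libraries, which may be technical. Alternatives were another pseudocount (0.1), other filters, other scalings, a replicate block, leaving out each library, and limma-voom run on recovered reads.

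The pathway genes and lists were chosen with earlier results of these data known. Values per library are given for tested members with an unadjusted p under 0.05 and for the 2 highest members of each role in shNC. Of each other list, up to 6 genes with such a p and the 2 most abundant are named. ACVR2A, BMPR2, SKIL, BMP8B and the genes with fewest reads were named after their values were seen. The result of 1 listed target gene is not reported here. Floors of 3 reads cover counting error only.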

Additional observations from a re-analysis of the deposited data

How the results depend on the processing

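Over all genes, 13 passed in limma (10 higher and 3 lower). The count was 7 with no filter, 31 with a mean of at least 5 FPKM, 20 with quantile normalization (13 higher and 7 lower), 117 with limma-voom on the recovered reads and 130 with limma-voom over genes with a mean of at least 10 reads, the last chosen after seeing the data. Leaving out 1 library gave 2 to 915 calls, with 915 without the shNC library of replicate 1, 5 without that of replicate 2 and 2 without any other single library. Of the members, 0 passed, and 0 to 3 did so when 1 library was left out (3 without that shNC library). The median difference of the TGF-beta branch was 0.04 (log2). It was 0.0678 with limma-voom over genes with at least 10 reads and 0.0232 to 0.0479 when 1 library was left out. That of the BMP branch was 0.04, and 0.0359 to 0.0941 when 1 library was left out (0.0941 without the shNC library of replicate 2). With no filter on low values it was 0.0234. The cause of these shifts was not tested.

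No result past the threshold changed sign. Of the 31 tested members, 20 kept their sign in every alternative that gave them a value, of 14 alternatives, and the others changed it only in fits that left out 1 library. A mean of at least 5 FPKM left 13 members without a value. The replicate numbers gave no clear pairing of the libraries. Deviations of same-numbered libraries correlated at 0.0654, -0.0239 and 0.00898, and 3 of 6 libraries correlated best with their own number. With so few libraries per group, these values cannot exclude that the libraries were paired. With the replicate block, 2 genes passed over all genes, 0 members passed, and the branch medians were 0.04 and 0.04. Depth limits NOG, BMP8B, SCX and ID3, with 21 to 106 reads per library.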

Other observations

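Several ligands, receptors and targets of the family lay below the 1 FPKM needed for the test. They were compared in limma with no filter on low values, and in the limma-voom fit over genes with a mean of at least 10 reads, which was chosen, like the genes named here, after seeing the data. ACVR1C, a type I receptor for nodal and related ligands, had 0.384, 0.347 and 0.331 FPKM in shPAK5 libraries, against 0.149, 0.162 and 0.202 FPKM in shNC libraries. Its groups did not overlap, on 24 to 64 reads per library. It passed in limma-voom (1.05 ± 0.23, log2, SE; adjusted p = 0.039) and not in limma with no filter (adjusted p = 0.302). BMP5, a BMP ligand, had 0.613, 0.508 and 0.469 FPKM in shPAK5 libraries, against 1.30, 0.965 and 0.790 FPKM in shNC libraries. Its groups did not overlap and it passed in neither fit (adjusted p = 0.0788 in limma-voom and 0.416 in limma with no filter).

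Among TGF-beta targets at such levels, differences ran in both directions. IL11, a cytokine, had 0.0825, 0.111 and 0.174 FPKM in shPAK5 libraries, against 0.448, 0.245 and 0.315 FPKM in shNC libraries, on 4 to 21 reads per library (-1.42 ± 0.43, log2, SE; adjusted p = 0.105, limma-voom). FN1 (fibronectin) had 0.111, 0.0785 and 0.0689 FPKM in shPAK5 libraries, against 0.0198, 0.0551 and 0.0208 FPKM in shNC libraries, on 6 to 35 reads per library (1.54 ± 0.40, log2, SE; adjusted p = 0.0772, limma-voom). Neither passed, and in limma with no filter the adjusted p was 0.40 for IL11 and 0.492 for FN1.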
